A study of Mus musculus with 15 samples.

Results

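Polysomal RNA was compared with total RNA in cultures of primary mouse neural stem cells that had received CD95L-T4 for 48 h. The arrays were chosen by their titles: the 3 titled as CD95L-T4 cultures at the polysomal level were set against the 4 titled as CD95L-T4 cultures at the total level, which makes 7 of the 15 arrays of the study. All 22626 probe sets other than the 64 Affymetrix controls were kept, out of 22690 in the table. CD95L-T4 is a trimerized form of CD95 ligand, the protein that engages the death receptor CD95 (Fas). The cells came from female mice of strain C57/B16, as the labels spell it, aged 6 weeks, and grew as neurospheres, which are free-floating clusters. The other 8 arrays held control cultures of the same strain, sex and age, 4 of total and 4 of polysomal RNA, for which the labels name no agent. Replicates are titled as biological, without saying whether each came from its own animal, so the p-values measure the spread between these samples.

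An mRNA that is being translated carries several ribosomes at once and forms a polysome, so the share of a gene's mRNA found in polysomes is read as a measure of its translation. mRNAs of secreted and membrane proteins are translated by ribosomes docked on the endoplasmic reticulum (ER), whereas mRNAs of cytosolic, nuclear and most mitochondrial proteins are translated by free ribosomes. CD95 is best known for starting apoptosis, and in neural stem cells it has also been linked to Src, PI3K, Akt and mTOR signalling, a pathway that acts on cap-dependent translation.

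The values are log2 expression values that the authors normalised, so a difference of 1 is a 2-fold difference. Each difference below is polysomal minus total RNA and states a gene's place relative to the other genes of the same fraction, not a number of molecules. Fraction cannot be told apart from preparation: per the labels, total RNA was isolated with a kit and listed as total RNA, while polysomal RNA was isolated with phenol and chloroform and listed as polyA RNA. The 3′ minus 5′ difference of the actin control probe sets, a measure of RNA integrity, was 0.32 to 0.46 in the total arrays. In the polysomal arrays it was 0.59, 0.68 and 1.03. For the Gapdh control probe sets it was -0.31 to -0.23 in total and -0.05, -0.05 and 0.22 in polysomal arrays. In control cultures the actin difference was 0.28 to 0.57 in total and 0.74 to 0.81 in polysomal arrays. The part of these differences in the results was not tested. Within a group the correlation between arrays was 0.9936 to 0.9973, and between polysomal and total arrays it was 0.9695 to 0.977. Polysomal replicate 2 stood apart in the added poly-A control transcripts, at 9.86 against 8.18 and 8.32 in the other 2 polysomal arrays, so counts without it are given where a count moved by over 1.5 times or the balance of higher and lower turned. Of 20 neural stem cell markers, 16 lay above the median level of the table, among them Sox2, Nes and Vim. All 16 microglia, 13 endothelial and 6 ependymal markers lay below the median level of the table, as did 12 of 13 fibroblast and mural markers. So did 17 of 21 neuron, 9 of 13 oligodendrocyte lineage and 8 of 15 astrocyte markers, beside 5710 of all 12393 genes. The astrocyte markers thus lay on both sides of that level. Per array, the microglia list averaged 4.26 to 4.37 in polysomal and 4.10 to 4.35 in total RNA, the endothelial list 4.91 to 4.99 and 4.70 to 4.85, the ependymal list 5.22 to 5.30 and 4.99 to 5.16, and the fibroblast and mural list 4.82 to 4.90 and 4.85 to 5.05, and their part in the results was not tested. The mean over all genes was 7.16 in polysomal and 7.09 to 7.13 in total RNA. In bulk cultures, fewer cells of a type and less RNA per cell cannot be told apart.

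Polysome representation differed widely between genes under CD95L-T4. A gene was called where limma's moderated test gave a Benjamini-Hochberg adjusted p under 0.05 over all probe sets, and each gene was represented by its brightest probe set. Of 12393 genes, 3670 (29.6%) were higher and 2701 (21.8%) were lower in polysomal RNA, 6371 (51.4%) in all. By probe set, 11603 of 22626 were called (51.3%), of which 6044 (26.7% of all) were higher and 5559 (24.6%) lower. Had every array been scaled to the same median, 7866 probe sets would have been called higher and 4799 lower, so that the higher ones made up 62.1% of the calls against 52.1% with the values as deposited. Without polysomal replicate 2, 3620 genes were higher and 2552 lower. Most differences were modest: the median over all genes was 0.07, the SD over genes 0.53, and the median standard error (SE) of a gene 0.10. Called differences past 2-fold numbered 483 genes higher (3.9%) and 506 lower (4.08%), and past 4-fold 2 higher and 10 lower. Calls were rarer among dim genes: with genes in 4 equal groups by brightness, 10.9% of the dimmest were higher and 2.74% lower, against 42.6% and 34.5% of the brightest. The ranges of the arrays did not overlap for 27.8% of genes in the higher direction and 20.4% in the lower.

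The largest difference belonged to Xist, the noncoding RNA that coats the inactive X chromosome in the nucleus. Its log2 values were 12.04, 12.42, 12.33 and 12.51 in total RNA and 9.03, 8.94 and 9.75 in polysomal RNA, a difference of -3.09 ± 0.16 (SE; 8.49-fold lower, adjusted p = 3.96e-10 by limma); values after ± are SEs of the difference unless an SD is named. ND5, a subunit of complex I encoded in mitochondrial DNA and translated by mitochondrial ribosomes, read 12.47, 12.61, 12.24 and 12.38 against 9.92, 9.06 and 10, or -2.77 ± 0.22 (adjusted p = 1.46e-08). Both groups of arrays were far apart for both RNAs, neither of which is translated on cytosolic ribosomes. ND5 was the 1 mitochondrially encoded mRNA measured under the listed names. Among the noncoding and small nucleolar RNA host genes as a whole, 9 of 16 were higher (56.2%) and 1, Xist, was lower (6.25%). The shares of all genes were 29.6% and 21.8%. Malat1 and Neat1, which like Xist stay in the nucleus, were not called, at -0.36 ± 0.39 and -0.01 ± 0.12.

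The largest rise was that of H1f4, a linker histone gene, whose total values of 4.36, 4.43, 4.64 and 4.14 are near the dim end of the arrays. Its polysomal values were 7.21, 7.45 and 7.12, a difference of 2.87 ± 0.19 (7.3-fold, adjusted p = 2.94e-09). Of 17 histone genes, 10 were higher (58.8%, beside 29.6% of all genes) and none lower, with a median of 0.69. Without polysomal replicate 2 the counts were 10 and 1. H2ac19 was higher by 1.29 ± 0.13 and the variant H2az2 by 0.69 ± 0.07. For 10 of the 17 genes every polysomal array lay above every total array, as for 27.8% of all genes. Below the median level of the table lay 7 of the 17.

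Genes on a list of secreted and membrane proteins, made at the ER, were mostly lower in polysomal RNA. Of its 70 genes, 64 were lower (91.4%) and 1, Clu, was higher (1.43%), with a median of -1.22. Clu, the secreted chaperone clusterin, lost its call when 1 array was left out (adjusted p up to 0.0726), and 1 of its 3 other probe sets was called lower. Tnc, the matrix glycoprotein tenascin-C of the stem cell niche, read 11.72, 11.96, 11.87 and 12.04 in total RNA and 9.66, 8.90 and 9.37 in polysomal RNA (-2.59 ± 0.13, adjusted p = 2.55e-10). App, the amyloid precursor protein, read 11.74, 12.10, 11.81 and 11.98 against 10.14, 9.66 and 9.82 (-2.03 ± 0.12, adjusted p = 8.6e-10), although its 3 other probe sets ran from -2.24 to -0.03. In both genes every polysomal array lay more than 1 unit below every total array. Ntn1, a secreted guidance cue, was lower, at -2.01 ± 0.08, Ptprz1, a receptor phosphatase of neural progenitors, at -1.83 ± 0.08, and Cd81, a tetraspanin, at -1.58 ± 0.09. The receptor Notch1 was lower, at -1.30 ± 0.07, the epidermal growth factor receptor Egfr at -0.91 ± 0.07 and the glutamate transporter Slc1a3 at -1.22 ± 0.08. Of the 4 other probe sets of Egfr, 2 were called lower and 1 higher. The list holds genes chosen with earlier results of these data known, so its count does not stand for all secreted or membrane proteins. Whether translation at the ER has a part in these differences was not tested. Of 118 transmembrane genes taken by the name Tmem, 43 were lower (36.4%) and 29 higher (24.6%), with a median of -0.00. Over all genes the shares were 21.8% and 29.6%.

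**Figure D1:**
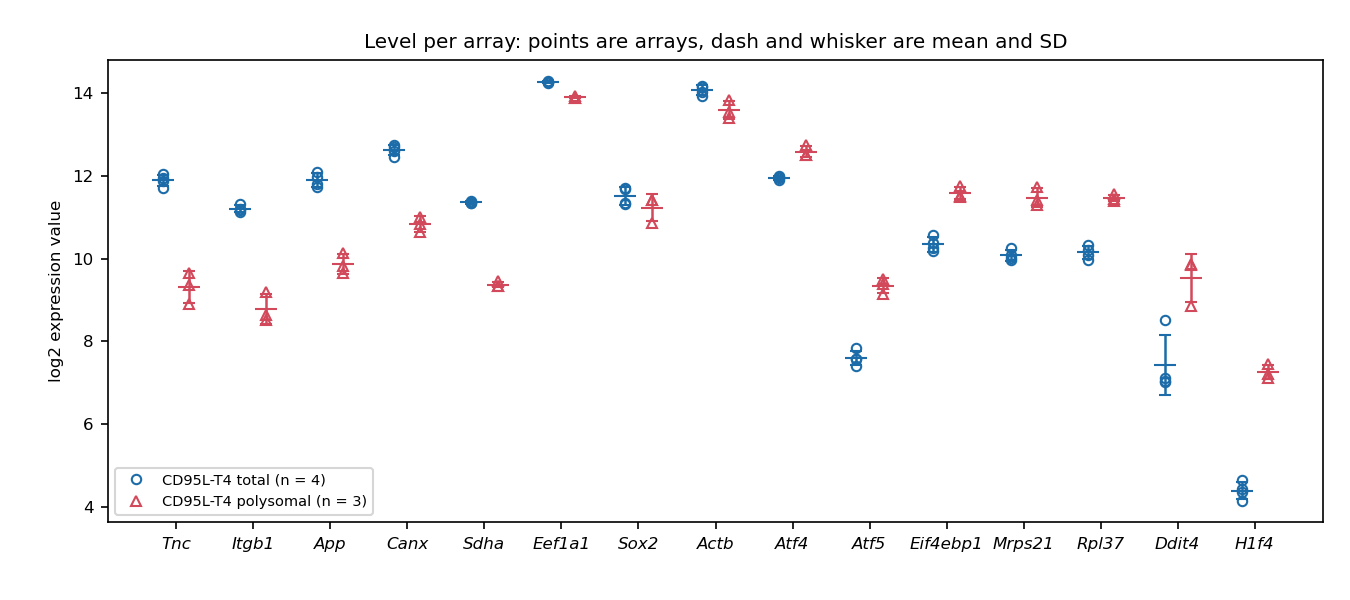
Log2 expression values of 15 genes per array in CD95L-T4 cultures, with 4 total arrays (circles) and 3 polysomal arrays (triangles); the dash is the mean and the whisker the SD. Tnc, Itgb1, App, Canx and Sdha lie lower in polysomal RNA with no overlap, Atf5, Eif4ebp1, Mrps21, Rpl37 and H1f4 higher with no overlap, and the arrays of Sox2 overlap.

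Matrix and adhesion genes were mostly dim. Of 88 measured collagens, laminins, integrins and other matrix genes, 68 were below the median level of the table, beside 5710 of all 12393 genes. Of the 88, 28 were lower (31.8%) and 4 higher (4.55%), beside 21.8% and 29.6% of all genes, with a median of -0.10. Under equal medians the list held 25 lower and 14 higher. Itgb1, the shared beta subunit of most matrix receptors of neural cells, read 11.21, 11.32, 11.13 and 11.17 in total and 9.20, 8.64 and 8.52 in polysomal RNA (-2.42 ± 0.17, adjusted p = 4.18e-09). Its 5 other probe sets ran from -2.73 to -0.08, with 3 called lower. Tetraspanins, small membrane proteins that organise adhesion receptors, had 11 of 23 members lower (47.8%) and 2 higher (8.7%). Without polysomal replicate 2 the counts were 12 and 1, and under equal medians 11 and 4. Tspan3 stood at -1.50 ± 0.09 and Tspan6 at -1.60 ± 0.13.

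**Figure D2:**
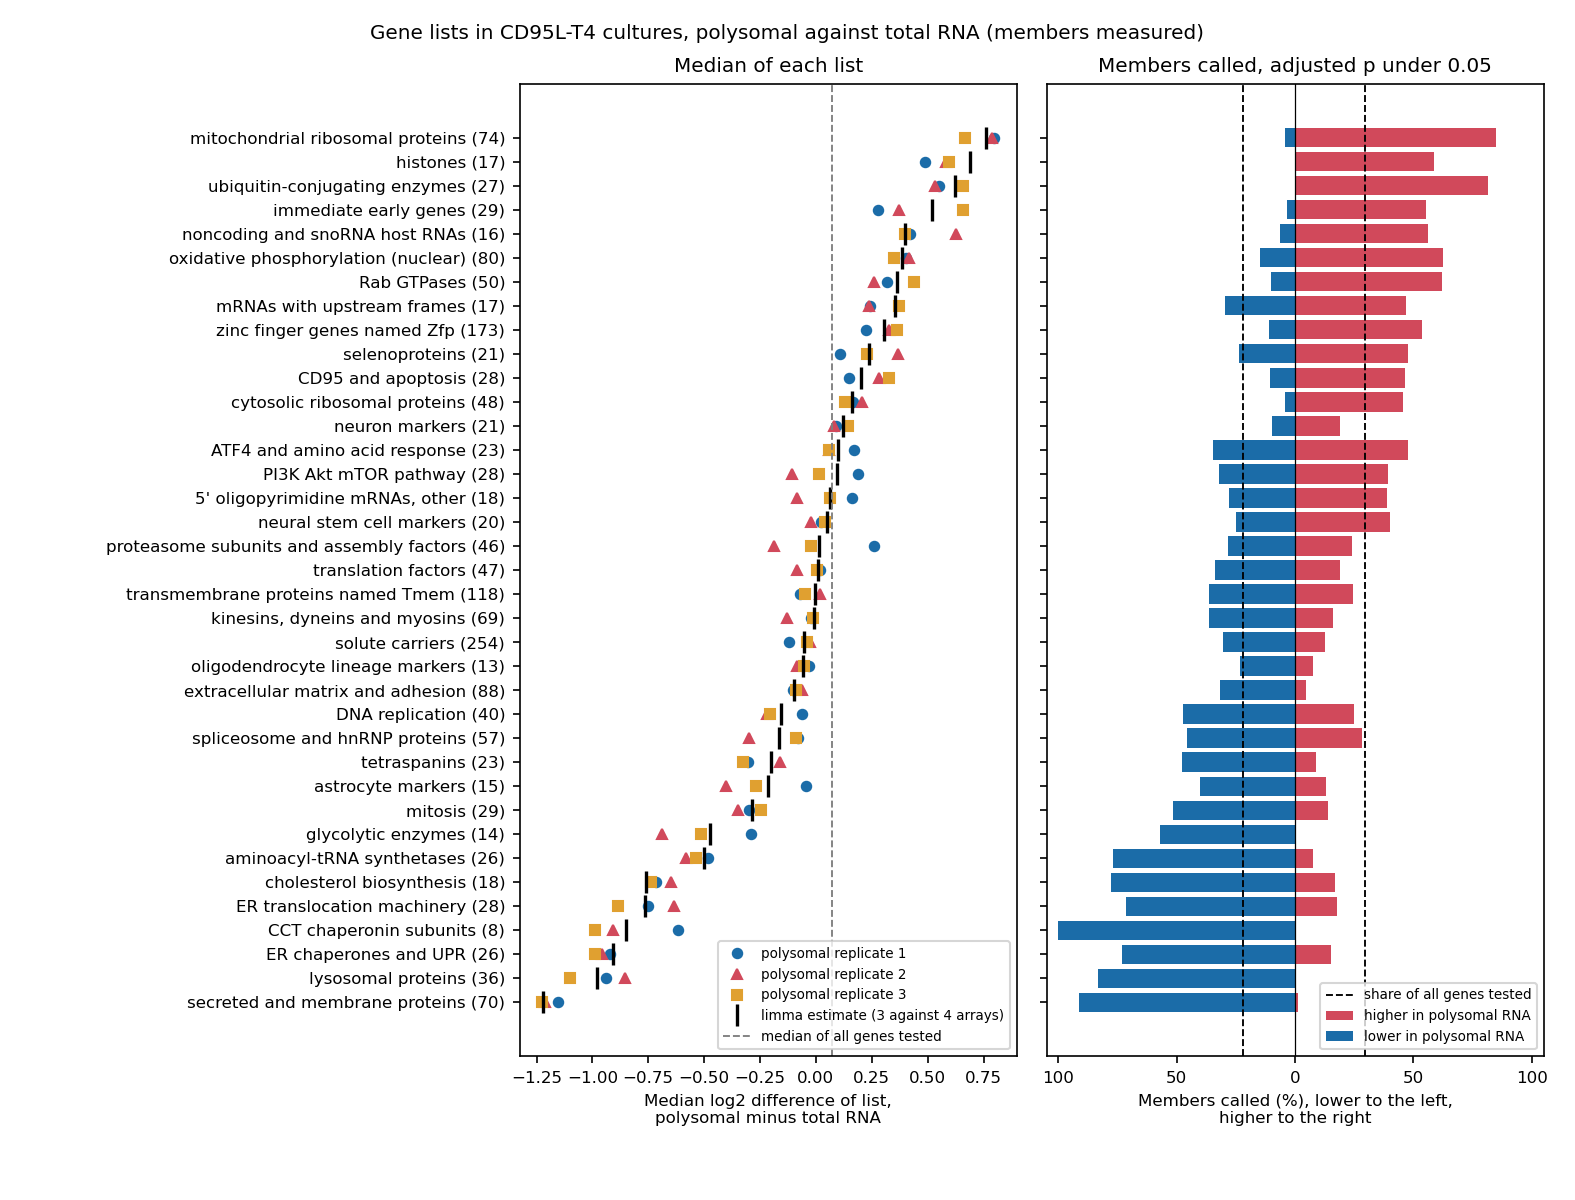
Left, median log2 difference of each list of genes, polysomal minus total RNA in CD95L-T4 cultures, for each polysomal array against the mean of the 4 total arrays (points) and for limma's estimate (bars); numbers in brackets are measured genes. Right, percentage of members called lower and higher, with dashed lines at the shares of all genes, 21.8% and 29.6%; secreted and membrane proteins and lysosomal proteins lie at the low end and mitochondrial ribosomal proteins at the high end in all 3 arrays.

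Genes of the ER entry machinery lay on both sides. The signal recognition particle (SRP), the cytosolic complex that picks up signal peptides as they emerge, had 3 of 4 protein subunits higher: Srp9 by 1.09 ± 0.09, Srp14 by 1.01 ± 0.08 and Srp19 by 0.96 ± 0.09. The SRP receptor, translocon and TRAP complex, which lie in the membrane, had 10 of 12 genes lower (83.3%) and 1 higher (8.33%). The shares of all genes were 21.8% and 29.6%. Sec61a1, the channel itself, was lower, at -1.40 ± 0.07, whereas Sec61b, its small tail-anchored partner, was higher by 0.99 ± 0.08. The oligosaccharyltransferase, which attaches N-glycans in the ER, had all 7 members lower, from -1.71 for Rpn2 to -0.22. Of the signal peptidase genes, 3 of 5 were lower and 1, Spcs1, was higher, a call that was lost without polysomal replicate 2.

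ER chaperones were low as well. Of 26 chaperone and unfolded protein response genes, 19 were lower (73.1%) and 4 higher (15.4%), with a median of -0.91. The shares of all genes were 21.8% and 29.6%. Canx, the membrane lectin calnexin, read 12.46, 12.70, 12.61 and 12.75 in total and 11.02, 10.84 and 10.64 in polysomal RNA (-1.80 ± 0.11, adjusted p = 1.04e-09). Pdia3, a disulfide isomerase that works with it, was lower, at -1.96 ± 0.15, and Sel1l, of the ER degradation machinery, at -1.82 ± 0.11. The highest member was Ddit3, a transcription factor (CHOP) and no ER protein, at 1.40 ± 0.09. Lysosomal genes, whose products pass through the ER, had 30 of 36 members lower (83.3%) and none higher, with a median of -0.98. The lysosomal list and that of secreted and membrane proteins share genes, Ctsb among them, so their counts are not separate observations. The proteases Ctsc, Ctsb and Tpp1 differed by -1.74 ± 0.09, -1.63 ± 0.09 and -1.39 ± 0.07.

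Cholesterol synthesis, whose later enzymes sit in the ER membrane, had 14 of 18 genes lower (77.8%) and 3 higher (16.7%), with a median of -0.76. The shares of all genes were 21.8% and 29.6%. Cyp51 and Sqle, enzymes of the ER membrane, were lower, at -1.47 ± 0.09 and -1.38 ± 0.08. Srebf2, the membrane-bound regulator of the pathway, was lower, at -0.95 ± 0.08. The 3 higher genes were Pmvk at 0.58 ± 0.08, Mvd at 0.32 ± 0.11 and Idi1 at 0.27 ± 0.08. The part of an enzyme's place in the cell in these differences was not tested. Idi1 reached an adjusted p of 0.0503 when 1 array was left out. Acaca, the cytosolic enzyme that commits carbon to fatty acids, was among the largest falls, from 6.97, 6.36, 7.01 and 6.59 to 3.77, 4.28 and 4.05 (-2.70 ± 0.19, adjusted p = 5.22e-09).

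The translation apparatus did not move as a block. Of 48 cytosolic ribosomal protein genes, 22 were higher (45.8%) and 2 lower (4.17%), beside 29.6% and 21.8% of all genes, with a small median of 0.16. Rpl37 stood highest, with 10.10, 10.34, 9.97 and 10.20 in total and 11.40, 11.56 and 11.45 in polysomal RNA (1.32 ± 0.09, adjusted p = 4.18e-09). Rps25 was higher by 1.07 ± 0.09 and Rps6, the ribosomal protein phosphorylated downstream of mTOR, by 0.82 ± 0.08. The 2 lower genes were Rpl12 at -0.99 ± 0.12 and Rpl4 at -0.20 ± 0.06. Under equal medians 32 were higher and 1 lower, so the count of higher genes moved with the scaling.

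Ribosomal protein mRNAs begin with a C followed by a run of pyrimidines, the 5′ terminal oligopyrimidine motif through which mTOR acts on their translation. RefSeq promoters (GRCm38.p6) were matched for 9882 of the genes by gene identifier. The transcribed strand was searched for a C with at least 4 further C or T, beginning within 3 bases of the annotated start. Such a start was found in 14.8% of all 9882 genes, in 16% of those called higher, in 13.5% of those called lower and in 38.1% of 42 ribosomal protein genes. Of the 16 ribosomal protein genes with the motif, 11 were higher and 1 lower, and of the 26 without it 9 were higher and 1 lower. Over all genes the calls hardly differed by motif. Of the 1466 with it 32.8% were higher and 20.3% lower, and of the 8416 without it 30.1% and 22.6%. A match describes these letters only, and annotated starts can be off by some bases. The 30 bases around the start are printed for 4 genes that were higher and 2 that were lower, to show that both kinds carried the motif, with the matching run in capitals.
Rps6: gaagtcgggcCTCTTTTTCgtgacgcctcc
Rpl14: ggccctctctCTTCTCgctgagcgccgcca
Rps27: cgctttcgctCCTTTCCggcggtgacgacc
Fau: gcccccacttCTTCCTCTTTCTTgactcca
Rpl12: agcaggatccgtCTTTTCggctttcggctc
Eef1a1: ctccgccctCTTCCCgagggtgggggagaa
These windows lie at chr4:86857348-86857377 (minus strand, Rps6), chr9:120571507-120571536 (plus strand, Rpl14), chr3:90213629-90213658 (minus strand, Rps27), chr19:6057937-6057966 (plus strand, Fau), chr2:32961702-32961731 (plus strand, Rpl12) and chr9:78481705-78481734 (minus strand, Eef1a1). Each spans the RefSeq start of its gene, and so promoter and first exon. Rps6, Rpl14, Rps27 and Fau were higher by 0.82, 0.99, 0.48 and 0.72, with adjusted p of 1.12e-07, 5.63e-07, 0.00039 and 5.27e-07 by limma. Rpl12 and Eef1a1 were lower, at -0.99 and -0.36.

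Of 18 other listed oligopyrimidine mRNAs, 7 were higher (38.9%) and 5 lower (27.8%), beside 29.6% and 21.8% of all genes. Elongation and initiation factors differed by subunit. Eef1a1, which brings aminoacyl-tRNA to the ribosome, read 14.24, 14.28, 14.30 and 14.28 in total and 13.90, 13.90 and 13.94 in polysomal RNA (-0.36 ± 0.06, adjusted p = 5.81e-05), a small difference with no overlap. Eef2, the translocase, was lower, at -0.27 ± 0.06 and Pabpc1, the poly-A binding protein, at -0.31 ± 0.07. Tpt1, a further oligopyrimidine mRNA, read 0.03 ± 0.06 and was not called. All 3 eIF1 genes were higher, with Eif1b at 1.05 ± 0.08, while 6 of 11 subunits of eIF3, the large scaffold of initiation, were lower, with Eif3a at -1.07 ± 0.09 and Eif3c at -1.01 ± 0.07, and 2 were higher (4 under equal medians). Eif4e2, a cap-binding relative of eIF4E, was higher by 1.27 ± 0.10. Eif4ebp1, the mTOR-regulated repressor of eIF4E, read 10.58, 10.25, 10.39 and 10.18 against 11.53, 11.75 and 11.50 (1.24 ± 0.09, adjusted p = 1.07e-08).

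The aminoacyl-tRNA synthetases, enzymes that charge tRNAs, were lower as a group. Of 26 genes, 20 were lower (76.9%) and 2 higher (7.69%), beside 21.8% and 29.6% of all genes, with a median of -0.50. The 18 cytosolic synthetases and scaffold proteins had 16 lower and none higher. Aars, for alanine, read 11.37, 11.32, 11.51 and 11.41 in total and 10.05, 9.95 and 10.02 in polysomal RNA (-1.40 ± 0.07, adjusted p = 2.91e-10), while Vars and Lars, for valine and leucine, were lower, at -0.95 ± 0.07 and -0.90 ± 0.07. Both higher genes, Ears2 at 0.53 ± 0.09 and Fars2 at 0.46 ± 0.08, encode mitochondrial enzymes, of which 4 of 8 were lower. Of the 2 other probe sets of Ears2, 1 was called lower.

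Genes of the mitochondrial ribosome, encoded in the nucleus and translated in the cytosol, formed the highest list. Of 74 genes, 63 were higher (85.1%) and 3 lower (4.05%), beside 29.6% and 21.8% of all genes, with a median of 0.76. Mrps21 read 10.09, 10.25, 9.97 and 10.01 in total and 11.41, 11.74 and 11.29 in polysomal RNA (1.40 ± 0.10, adjusted p = 6.31e-09). Mrpl49 and Mrpl43 were higher by 1.09 ± 0.08 and 1.02 ± 0.07. Both subunits of the mitochondrial ribosome took part, with 41 of 47 large and 22 of 27 small subunit genes higher. The 3 lower genes were Mrpl3 at -0.75 ± 0.08, Mrps5 at -0.45 ± 0.08 and Mrpl38 at -0.33 ± 0.09.

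Oxidative phosphorylation was split within its complexes. Of 80 nuclear-encoded subunits, 50 were higher (62.5%) and 12 lower (15%), beside 29.6% and 21.8% of all genes, with a median of 0.39. In complex I, 21 of 33 were higher and 5 lower, and the lower ones included Ndufs1 (-1.48 ± 0.07), Ndufa9 (-1.34 ± 0.07) and Ndufv1 (-1.30 ± 0.08). Sdha, the catalytic subunit of complex II, read 11.38, 11.34, 11.40 and 11.34 in total and 9.34, 9.45 and 9.33 in polysomal RNA (-1.99 ± 0.06, adjusted p = 6.41e-12), whereas its membrane anchors Sdhc and Sdhd were called higher. In ATP synthase, 12 of 17 were higher and 3 lower. Those 3 were Atp5a1, Atp5b and Atp5c1, subunits of its F1 head and stalk, with Atp5a1 at -1.56 ± 0.07 and Atp5b at -1.29 ± 0.10. The subunit Atp5e stood at 1.26 ± 0.10. Whether protein size has a part in these differences was not tested. These genes of single complexes, and the subgroups below, were picked after their values were seen and are given as a description.

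**Figure D3:**
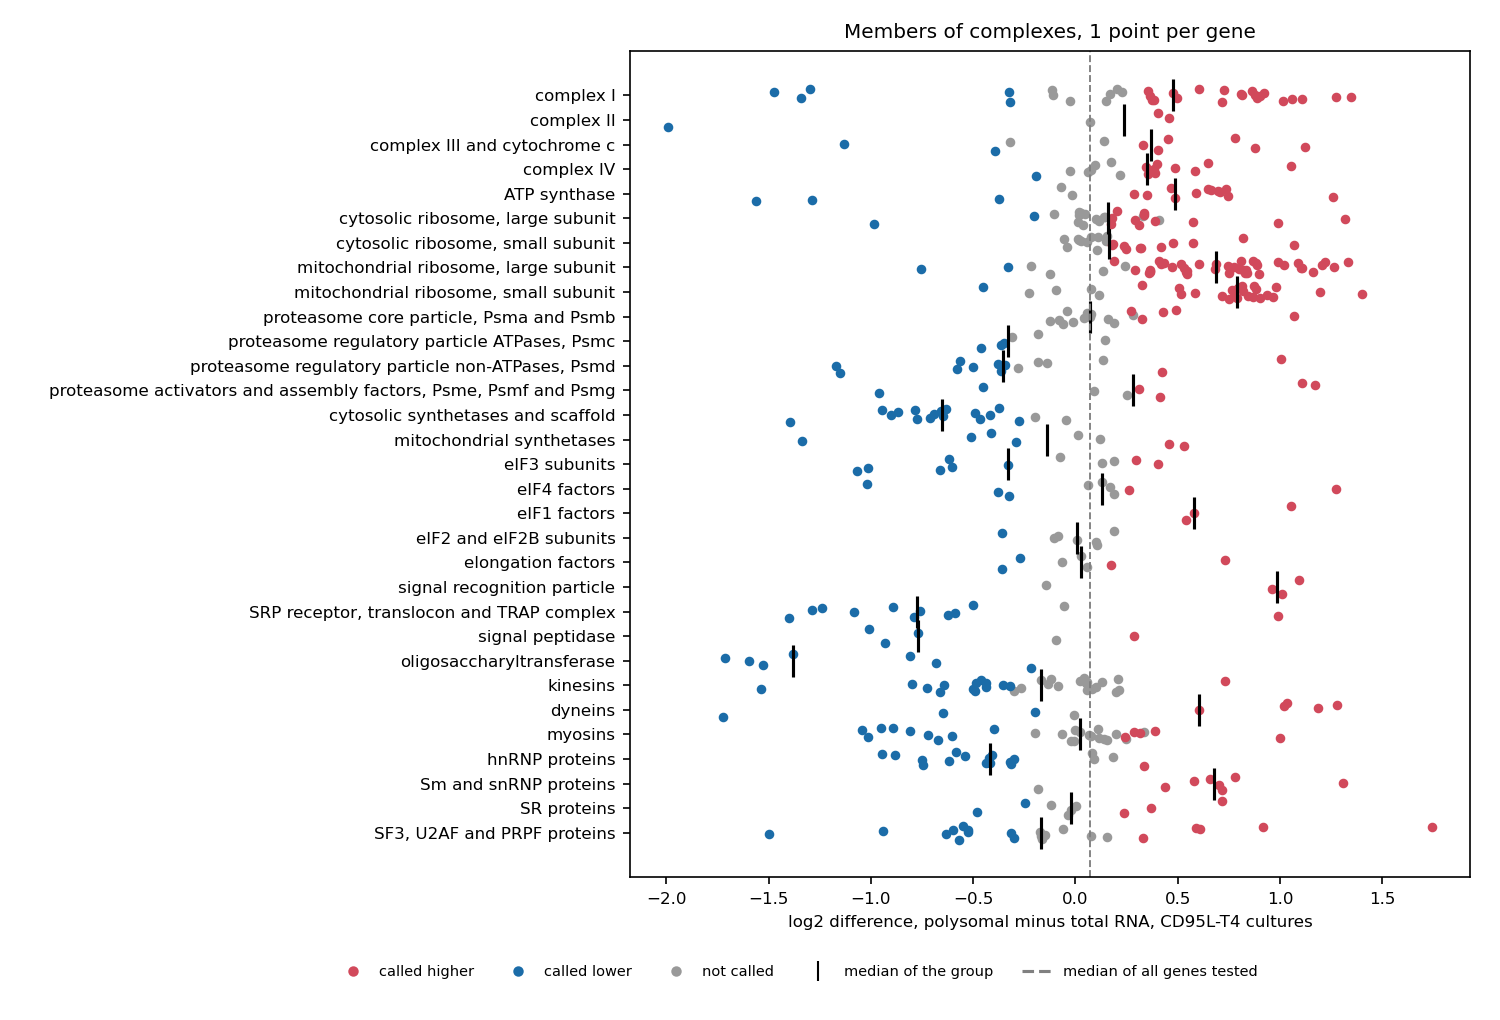
Log2 difference, polysomal minus total RNA in CD95L-T4 cultures, of each gene (point) of 31 complexes or protein groups, coloured by call, with the median of each group (bar) and of all genes (dashed line). Complex I, complex II, ATP synthase, eIF3 and the dyneins each hold genes called higher and genes called lower, as do the SF3, U2AF and PRPF proteins.

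Splitting within an assembly recurred elsewhere. Of 57 spliceosome and hnRNP genes, 26 were lower (45.6%) and 16 higher (28.1%), beside 21.8% and 29.6% of all genes. The hnRNP proteins, which package nascent RNA, had 14 of 18 lower and 1 higher, and Hnrnpu and Hnrnpm were lower, at -0.95 ± 0.08 and -0.88 ± 0.07. The small Sm and snRNP proteins, the ring around the spliceosomal RNAs, had 7 of 8 higher and none lower, with Snrpc at 0.70 ± 0.07. Prpf8, the core of the spliceosome, was lower, at -1.50 ± 0.09, and U2af1, the subunit that reads the 3′ splice site, was higher by 1.74 ± 0.26. Without polysomal replicate 2, hnRNP genes counted 11 lower and 2 higher.

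All 8 subunits of the CCT chaperonin, which folds actin and tubulin, were lower, from -0.97 for Cct7 to -0.56, with a median of -0.85. In the proteasome, 8 of 14 Psmd subunits of the regulatory particle were lower and 2 higher, while of the 18 Psma and Psmb subunits of the core 5 were higher and none lower. Psmd2 and Psmd1 were lower, at -1.17 ± 0.08 and -1.15 ± 0.07, and Psmg3, an assembly factor, was higher by 1.17 ± 0.07. The 5 higher core genes made up 27.8% of their group, near the 29.6% of all genes. The proteasome list as a whole had 13 lower (28.3%) and 11 higher (23.9%) of 46, beside 21.8% and 29.6% of all genes. The balance turned to 11 lower and 15 higher without polysomal replicate 2 and to 12 and 15 under equal medians, with list medians of 0.26, -0.19 and -0.02 in polysomal replicates 1, 2 and 3.

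Among motors, the kinesins had 13 of 31 lower (41.9%) and 1 higher (3.23%), beside 21.8% and 29.6% of all genes. Under equal medians 4 kinesins were higher. Kif1b stood at -1.54 ± 0.10. Dync1h1, the heavy chain of dynein, read 10.13, 10.57, 10.34 and 10.65 in total and 8.89, 8.41 and 8.80 in polysomal RNA (-1.72 ± 0.13, adjusted p = 6.93e-09). Its light chains went the other way, with Dynll2 higher by 1.18 ± 0.09 and Dynlrb1 by 1.02 ± 0.09. Ubiquitin-conjugating enzymes had 22 of 27 members higher (81.5%) and none lower, with a median of 0.62. Ube2e2 stood at 1.34 ± 0.09 and Ube2f at 1.07 ± 0.07. Rab GTPases, switches of vesicle traffic, had 31 of 50 higher (62%) and 5 lower (10%). The lower Rab genes numbered 2 without polysomal replicate 2 and also under equal medians, and Rab10, the one with the largest fall in the list, read -0.65 ± 0.11 with all arrays.

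Genes of DNA replication and mitosis were divided. Of 40 replication genes, 19 were lower (47.5%) and 10 higher (25%), beside 21.8% and 29.6% of all genes. The lower ones included the ribonucleotide reductase subunit Rrm1 (-1.12 ± 0.07), the helicase subunit Mcm6 (-0.90 ± 0.06) and the single-strand binding subunit Rpa1 (-0.86 ± 0.07), and the higher ones Rpa3, the small subunit of the same complex (0.94 ± 0.09), and E2f1, the transcription factor that drives S phase (1.23 ± 0.09). Of 29 mitosis genes, 15 were lower (51.7%) and 4 higher (13.8%). Mki67, the proliferation marker Ki-67, read 11.82, 12.01, 11.85 and 11.86 in total and 10.45, 10.23 and 10.89 in polysomal RNA (-1.36 ± 0.12, adjusted p = 3.7e-08), and Top2a was lower, at -1.02 ± 0.08. Cenpa, the centromeric histone, and Birc5, survivin, were higher by 0.89 ± 0.08 and 0.93 ± 0.09. Pcna was lower, at -0.49 ± 0.11, with polysomal replicate 2 at 12.55 against 13.20 and 13.01.

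Some mRNAs hold translated upstream reading frames in their leaders, which let the main frame be translated when initiation factor eIF2 is limited. Of 17 such mRNAs, 8 were higher (47.1%) and 5 lower (29.4%), beside 29.6% and 21.8% of all genes. The lower ones numbered 3 without polysomal replicate 2 and also under equal medians. Atf5 read 7.57, 7.41, 7.57 and 7.83 in total and 9.15, 9.52 and 9.38 in polysomal RNA (1.76 ± 0.10, adjusted p = 9.12e-10). Atf4, the central factor of the integrated stress response, read 11.90, 11.96, 11.97 and 11.99 against 12.50, 12.75 and 12.52 (0.64 ± 0.07, adjusted p = 9.44e-07), and its 2 other probe sets were called higher too. Ddit3 and Ppp1r15a, its downstream partners, were higher by 1.40 ± 0.09 and 0.93 ± 0.08. Bace1, a membrane protease, was lower, at -1.19 ± 0.12 and Ppp1r15b, the constitutive relative of Ppp1r15a, at -0.46 ± 0.10. The wider ATF4 and amino acid response list had 11 of 23 higher (47.8%) and 8 lower (34.8%). Its membrane transporter Slc7a5 was lower, at -0.98 ± 0.08. Immediate early genes, which growth factors induce within minutes, had 16 of 29 higher (55.2%) and 1, Dusp6, lower (3.45%). Ier3 stood at 1.11 ± 0.11 and Zfp36 at 0.93 ± 0.09.

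For the CD95 pathway itself, the receptor and its first caspase were close to the dim end and showed no difference past the test. Fas read 4.55, 4.45, 4.42 and 4.69 in total and 4.49, 4.47 and 4.26 in polysomal RNA (-0.12 ± 0.13, adjusted p = 0.455). Fasl and Casp8 stood at 0.12 ± 0.09 and 0.10 ± 0.10, and the arrays of these 3 genes overlapped. Fadd, the adaptor between receptor and caspase, read 8.22, 8.22, 8.04 and 8.42 against 8.51, 8.81 and 8.67 (0.44 ± 0.09, adjusted p = 0.000679). Of 28 CD95 and apoptosis genes, 13 were higher (46.4%) and 3 lower (10.7%), beside 29.6% and 21.8% of all genes, with a median of 0.20. Higher members included the pro-death factors Bad (1.15 ± 0.11) and Bak1 (0.90 ± 0.10, with its other probe set called lower at -0.38) and the inhibitor Birc5, and lower ones Apaf1, the apoptosome scaffold (-0.88 ± 0.10), and Tnfrsf1a, a membrane receptor (-0.43 ± 0.07).

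In the PI3K, Akt and mTOR pathway, 11 of 28 genes were higher and 9 lower, against 29.6% and 21.8% of all genes. Akt1 read 10.14, 10.33, 10.13 and 10.38 in total and 10.89, 10.74 and 11.06 in polysomal RNA (0.65 ± 0.10, adjusted p = 3.78e-05), with Akt2 alike at 0.65 ± 0.09. Mtor was lower, at -0.49 ± 0.11 on the brighter of its 2 probe sets, while the other was called higher at 0.31. The adaptor Irs1 was lower, at -0.90 ± 0.11 and the transcription factor Foxo3 at -0.69 ± 0.12. Ddit4, a stress-induced inhibitor of mTOR, read 8.51, 7.02, 7.05 and 7.12 in total and 8.86, 9.86 and 9.88 in polysomal RNA (2.11 ± 0.41, adjusted p = 0.000319). Its arrays did not overlap, but total replicate 1 stood well above the other 3 total arrays and close to polysomal replicate 1.

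Of 20 neural stem cell markers, 8 were higher (40%) and 5 lower (25%), beside 29.6% and 21.8% of all genes. Sox2, the stem cell transcription factor, read 11.68, 11.72, 11.32 and 11.34 in total and 11.43, 10.86 and 11.43 in polysomal RNA (-0.28 ± 0.13, adjusted p = 0.0917), with overlapping arrays. The lower genes were the membrane and filament genes Notch1, Slc1a3, Egfr, Vim (-0.89 ± 0.08) and Nes (-0.48 ± 0.15). Nes read 10.77, 11.16, 11.16 and 11.33 against 10.71, 10.30 and 10.86, so its arrays overlapped, and leaving out 1 CD95L-T4 array brought its adjusted p to at most 0.083. Higher were the transcription factors and RNA-binding proteins Pax6, Hes1, Hes5, Id1, Id3, Msi1 and Msi2 and the small surface protein Cd24a. Markers of other lineages were called in both directions. Of 21 neuron markers 4 were higher (19%) and 2 lower (9.52%), and of 15 astrocyte markers 2 (13.3%) and 6 (40%). Of 13 oligodendrocyte lineage markers 1 was higher (7.69%) and 3 lower (23.1%). Over all genes the shares were 29.6% higher and 21.8% lower. Single members do not stand for their lists. Olig2 (-0.06 ± 0.10), Gfap (0.08 ± 0.16), Dcx (-0.02 ± 0.15) and Tubb3 (0.14 ± 0.13) were not called, and Olig1 was lower, at -0.38 ± 0.07.

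The question of whether the ligand altered these differences was tested as the difference between the fraction contrast in CD95L-T4 cultures and that in control cultures, which share no arrays. No probe set (0%) passed that test in limma (lowest adjusted p = 0.897), and 992 (4.38%) had an unadjusted p under 0.05. The 95% confidence interval of the difference stayed inside 1.5-fold in 84.2% of the probe sets and inside 2-fold in 99.05%. In control cultures 4147 genes (33.5%) were higher and 2875 (23.2%) lower in polysomal RNA. Called higher in both kinds of culture were 3211 genes, which is 87.5% of those in CD95L-T4 and 77.4% of those in control cultures, and called lower in both were 2489, or 92.2% and 86.6%. None was called in opposite directions.

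Across genes, the differences of both kinds of culture had a Pearson correlation of 0.961 and a Spearman correlation of 0.915 over 12393 genes, which are not independent replicates and share each fraction's preparation. The slope of CD95L-T4 on control differences was 0.899. By polysomal array the slope was 0.837, 0.998 and 0.862 in replicates 1, 2 and 3, so that the array with the high poly-A controls lay closest to the control cultures. The part of those controls in the slope was not tested. Genes with large differences had like values in both: Tnc stood at -2.59 under the ligand and -2.93 in control cultures, Xist at -3.09 and -3.15, Sdha at -1.99 and -2.03, and Atf5 at 1.76 and 1.86. Ddit4 was 2.11 under the ligand and 0.68 in control cultures, a difference of 1.43 ± 0.56 that did not pass the adjusted test (adjusted p = 0.897).

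**Figure D4:**
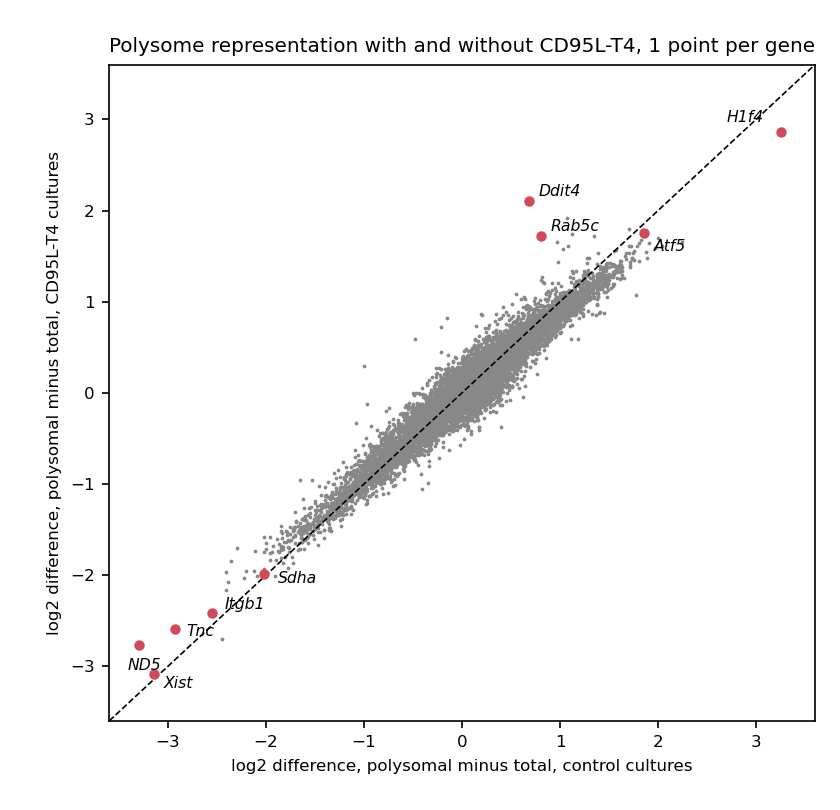
Log2 difference, polysomal minus total RNA, of each gene (point) in control cultures (x axis) and in CD95L-T4 cultures (y axis); the dashed line marks equality. Points follow the line, as the correlation of 0.961 states, and Ddit4 lies above it at 2.11 against 0.68.

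The 5 genes with the smallest p in that test were Nrros, 2310010J17Rik, Slc47a1, Arhgap39 and Tgfb1, each with an adjusted p of 0.897. 2310010J17Rik was higher by 1.07 under the ligand and 1.78 in control cultures, a difference of -0.71 ± 0.16. Tgfb1, a secreted growth factor, was -0.39 under the ligand and 0.06 in control cultures, at levels of 4.81 ± 0.03 (SD, n = 3) in polysomal and 5.20 ± 0.14 (SD, n = 4) in total RNA of treated cultures. Nrros, a membrane partner of latent TGF-beta, was -0.38 and 0.18, and Arhgap39 -0.57 and -0.02. Slc47a1 was near the floor of the arrays, at 2.99 ± 0.20 (SD, n = 3) and 3.20 ± 0.07 (SD, n = 4). Without polysomal replicate 2, 2 probe sets passed: one of Arhgap31 (-0.83 ± 0.12, adjusted p = 0.0429) and one with no gene in the annotation (-1.21 ± 0.16, adjusted p = 0.0353); both were named after their values were seen.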

How the data were processed

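RNA of neural stem cell cultures was measured on Affymetrix mouse arrays, and the authors deposited log2 expression values per probe set, already normalised. The normalisation method is not given in the sources used here. Values were used as deposited. limma 3.58.1 in R 4.3.3 fitted 4 group means over all 15 arrays and 22626 probe sets, with Benjamini-Hochberg adjustment and a threshold of 0.05, and the steps were tested on simulated data. Annotation gave 20380 probe sets 1 gene, 691 several and 1555 none, and the brightest probe set stood for each of 12393 genes. Named genes were the 15 largest separated rises and falls, the members of each list with the smallest p in its direction and against it, a set list and the 5 smallest p of the difference from control cultures. Genes named to describe a complex or a list of cell markers were added after their values were seen. Members, lists and tests were chosen with earlier results of these data known, and the division of lists into complexes was made after their values were seen. The number of arrays limits the precision. Deviations of same-numbered arrays of the 2 fractions from their group means had r of 0.197, -0.195 and -0.0823. For differently numbered arrays r was -0.187 to 0.181. With means of 3 and 4 arrays these values cannot settle whether cultures were paired. Numbers were not treated as pairs in the main fit. Protein features, size among them, were not analysed here, so their part in the differences was not tested.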

Additional observations from a re-analysis of the deposited data

Results flagged for a closer look

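In a group of 4 arrays, 1 array was counted as far from the others where its gap to the nearest took up most of the group's range (Dixon's test at 95%), which chance alone does in about 1 in 20 groups. Among the named genes this held for CD95L-T4 total arrays of 6 genes. Ddit4 stood at 8.51 in replicate 1, against 7.02 to 7.12 in the other 3, and leaving out any 1 CD95L-T4 array kept its adjusted p at or under 0.00334. Snhg1 at 11.83 and Irs1 at 10.70 were lowest in replicate 1. Ptprz1 was highest in replicate 2, at 11.13. In replicate 3, Bad was highest at 8.85 and Ndufa9 lowest at 11.23. The median level of the ER chaperone and unfolded protein response list was likewise highest in total replicate 1, at 9.815.

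The added poly-A control transcripts, which no comparison uses, averaged 9.857 in CD95L-T4 polysomal replicate 2, above the highest control polysomal array at 9.033.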

How the results depend on the processing

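Counts of called probe sets and genes stayed within 1.5 times those reported under another scaling, filter on dim probe sets, variance model or array weighting. Leaving out each of the 15 arrays in turn gave 11039 to 11578 called probe sets, and for the difference from control cultures 0 to 2. Testing against a minimum log2 difference of 0.5 gave 3789 probe sets (1681 higher, 2108 lower; genes 1065 and 947), and against 1 it gave 521 (72 and 449; genes 46 and 177), fewer by construction. With the replicate number as a block, 11597 probe sets were called (6057 higher, 5540 lower), and on the 7 CD95L-T4 arrays alone 10311 without the block and 9333 with it, the latter added after seeing the data. Equal medians shifted the median of all genes by 0.09 and turned the list medians of oligodendrocyte markers to 0.0313 and of solute carriers to 0.0387. The neural stem cell median ran from -0.015 (without polysomal replicate 3) to 0.0917 (without total replicate 1), and the median log2 difference of neuron markers was -0.0108 without the dimmest probe sets. Averaging all probe sets of a gene turned Gas5 to -0.29 and Snhg1 to -0.25. The cause of these turns was not tested. Dim genes, where calls were rare, have less signal over background.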

Other observations

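Further gene families were counted in CD95L-T4 cultures, beside 29.6% higher and 21.8% lower over all genes. Selenoproteins, which decode a stop codon as selenocysteine, had 10 of 21 members higher (47.6%) and 5 lower (23.8%) in polysomal RNA, and in control cultures 9 and 7. Gpx1, a glutathione peroxidase, read 10.35, 10.23, 10.17 and 10.19 in total and 11.40, 11.80 and 11.42 in polysomal RNA (1.31 ± 0.09, adjusted p = 6.39e-09). Msrb1 and Gpx4 were higher at 1.24 ± 0.10 and 0.90 ± 0.10, while the ER proteins Selenot and Selenon were lower at -0.72 ± 0.08 and -0.71 ± 0.10. Of the 16 noncoding and small nucleolar RNA host genes, 9 were higher and 6 not called. The higher ones included Snhg8 at 1.29 ± 0.13, Snhg6 at 0.92 ± 0.09 and Snhg5 at 0.83 ± 0.08. Gas5 and Snhg1 were higher on their brightest probe sets, at 0.52 ± 0.08 and 0.57 ± 0.09, and each had 2 other probe sets called lower and was negative when all its probe sets were averaged.

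Glycolytic enzymes had 8 of 14 members lower and none higher (7 and 1 without polysomal replicate 2). Pkm, pyruvate kinase, read 12.45, 12.47, 12.47 and 12.48 in total and 11.64, 11.24 and 11.49 in polysomal RNA (-1.01 ± 0.10, adjusted p = 1.02e-07), and Hk1, hexokinase, was lower at -1.07 ± 0.09. Of 33 mitochondrial carriers of the Slc25 family 18 were higher and 7 lower, whereas of 221 other solute carriers 14 were higher and 70 lower. Under equal medians 35 of those 221 were higher and 66 lower, and in control cultures 32 and 66. Slc25a23 stood at 1.04 ± 0.09 and the zinc importer Slc39a6 at -1.51 ± 0.07. Zinc finger genes named Zfp had 93 of 173 higher and 19 lower, with Zfp593 at 1.30 ± 0.10 and Zfp445 at -1.17 ± 0.09. Among astrocyte markers, 6 of 15 were lower and 2 higher (4 and 2 without polysomal replicate 2), with the gap junction protein Gja1 at -1.44 ± 0.13 and the calcium-binding protein S100b at 1.61 ± 0.14.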
